A study of Mus musculus with 8 samples.

Results

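The nuclear-encoded subunits of mitochondrial oxidative phosphorylation (OXPHOS) were followed in bone marrow plasma cells that lack Blimp1 or Xbp1. Members were the genes whose symbols mark them as complex I subunits (Ndufa, Ndufb, Ndufc, Ndufs and Ndufv), complex II subunits (Sdha to Sdhd), complex III subunits (the Uqcr genes and Cyc1), complex IV subunits (Cox4 to Cox8) or ATP synthase subunits (Atp5, complex V), with genes that RefSeq types or names as pseudogenes left out. This gave 89 of the 27179 genes in the count table, with 39 in complex I, 4 in complex II, 9 in complex III, 18 in complex IV and 19 in complex V. A filter on low counts kept 85 of the 89 members and 15073 of all genes. The 4 members that did not pass were Uqcr11, with 0 to 15 counts per library, Cox8b with 0 to 4, Cox7b2 with 0 to 1, and Cox8c with 0 in all 8 libraries.

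RNA was sequenced from plasma cells, the antibody-secreting end stage of the B cell lineage, sorted from bone marrow of C57BL/6 mice as cells positive for a Blimp1-GFP reporter and for CD138. Each of the 4 groups holds 2 libraries, which are Blimp1-/- (Blimp1KO) and, in the same batch 1, wild type (WT) replicates 1 and 2, then Xbp1-/- (Xbp1KO) and, in the same batch 2, WT replicates 3 and 4. Blimp1, encoded by Prdm1, and XBP1 are transcription factors of plasma cells. Blimp1KO is set against the WT pair of batch 1 and Xbp1KO against that of batch 2. All groups were sorted on the same reporter and surface marker, so the knockout cells are those that still carried both. The labels do not give the deleted exons, the timing of the deletion, or the age and number of mice, and the series text calls the replicates biological.

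Complexes I to IV pass electrons from NADH and succinate to oxygen. Complexes I, III and IV pump protons across the inner mitochondrial membrane, and complex V uses that gradient to make ATP. Most subunits are nuclear genes, while a small core of complexes I, III, IV and V is encoded by mitochondrial DNA, so each of these complexes draws on both genomes. Plasma cells use mitochondrial ATP for protein folding and secretion, and import of pyruvate into mitochondria is known to sustain long-lived plasma cells.

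Library depth, in units of 1000000 counts, ran from 44.01 to 145.4, and from 19.0 to 72.9 outside immunoglobulin genes, which took 25.2% to 75.8% of a library. The members together held 179937 to 568757 counts per library. Prdm1 stood at 243 and 176 CPM (counts per 1000000, on library sizes scaled by the TMM method) in Blimp1KO, against 301 and 306 CPM in WT of batch 1, and was not called (log2 fold change -0.54 ± 0.25 (SE), adjusted p = 0.401 by edgeR). Xbp1 stood at 1302 and 1105 CPM in Xbp1KO, against 2129 and 2203 CPM in WT of batch 2, and was not called either (-0.85 ± 0.25, adjusted p = 0.0939 by edgeR). Both genes lay below WT in their own knockout without overlap, and with the deleted part not given these counts check the labels only in part. The 9 plasma cell markers tested had counts in every library, with all 9 estimates below WT and a median of -0.52 in Blimp1KO, and 7 above WT and a median of 0.18 in Xbp1KO; none was called, and their part in the results was not tested. Summed erythroid markers stood at 11.6 and 1431 CPM in Xbp1KO, against 44.3 and 453 CPM in WT of batch 2, and summed neutrophil and monocyte markers at 43.9 and 1414 CPM, against 13.1 and 594 CPM. Replicate 2 of Xbp1KO and replicate 4 of WT thus had higher markers of other marrow cells than their partners. In batch 1, summed erythroid markers stood at 45.2 and 223 CPM in Blimp1KO, against 44.4 and 234 CPM in WT. They were higher in replicate 2 of both groups. Summed neutrophil and monocyte markers of batch 1 stood at 523 and 293 CPM in Blimp1KO, against 318 and 419 CPM in WT. Summed markers of mature B cells stood at 384 and 375 CPM in Blimp1KO, against 149.6 and 124 CPM in WT of batch 1. Summed markers ran from 2.45 to 8.40 CPM for T and NK cells, from 0.562 to 4.59 CPM for megakaryocytes and from 28.9 to 62.8 CPM for stroma and endothelium over the 8 libraries. In sorted bulk samples, fewer cells of a type and less RNA per cell cannot be told apart.

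In WT cells all 5 complexes were expressed. Levels per length, in CPM outside immunoglobulin genes per kilobase of gene model and averaged over the 4 WT libraries, had medians of 72.1 in complex I, 117 in complex II, 109.6 in complex III, 83.3 in complex IV and 119 in complex V. The highest levels were those of Atp5b, the catalytic beta subunit of ATP synthase, at 508, of Cox4i1, the common isoform of cytochrome oxidase subunit 4, at 502, and of Atp5e, the epsilon subunit of ATP synthase, at 438. The lowest members that passed the filter were Cox7a1, a muscle isoform, at 0.333, Cox6b2, a testis isoform, at 0.657, and Sdhd, a membrane anchor of complex II, at 1.89. The partners of Sdhd in complex II stood at 124 for Sdha, 135 for Sdhb and 109 for Sdhc. None of the 1182 windows of 50 bases in Sdhd transcripts occurs in another gene, and its gene model in the count table spans 1285 bases. The cause of its low level was not tested.

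**Figure D1:**
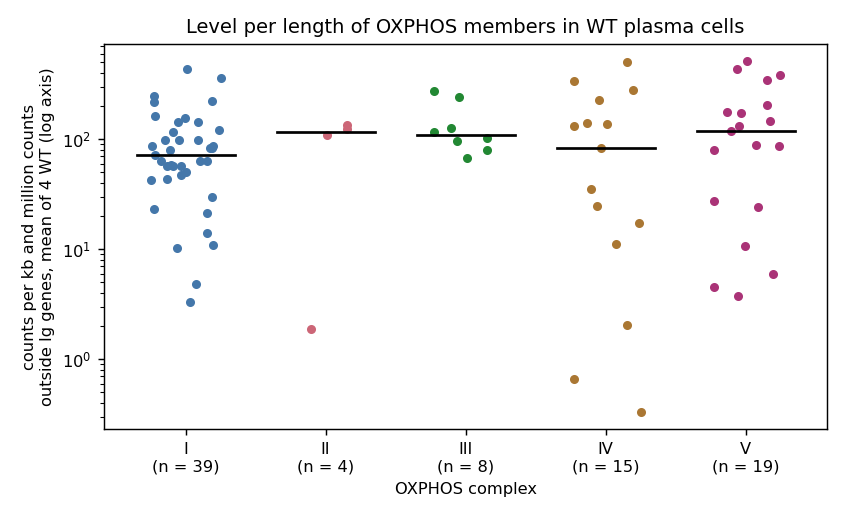
Level per length of each OXPHOS member that passed the filter, by complex (horizontal axis), in CPM outside immunoglobulin genes per kilobase (log axis), averaged over the 4 WT libraries. Points are genes and bars are medians, from 72.1 in complex I to 119 in complex V, and the lowest points of complexes II and IV are Sdhd at 1.89 and Cox7a1 at 0.333.

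Some members could not be counted apart from other genes with the same sequence. For 17 of the 85 tested members, at least 20% of the transcript windows of 50 bases also occur in another gene, and the largest share was 84.8% for Atp5l. Atp5l, the g subunit of ATP synthase, stood at only 0.680 to 2.54 CPM over the 8 libraries. Ndufb4, an accessory subunit of complex I, stood at 0.317 to 1.48 CPM with 37.0% of its windows shared, and the members Gm3244 and Gm3873 are named Ndufb4c and Ndufb4b in RefSeq, which types both as protein-coding. GENCODE types Ndufb4c as a processed pseudogene. Atp5s and Atp5sl match the symbol rule but are not subunits of ATP synthase. Atp5s stood at 1.98 and 2.02 CPM in Blimp1KO, against 2.11 and 2.00 CPM in WT of batch 1, and at 3.14 and 2.80 CPM in Xbp1KO, against 2.53 and 2.10 CPM in WT of batch 2. Atp5sl stood at 11.9 and 15.5 CPM in Blimp1KO, against 12.8 and 11.8 CPM, and at 10.2 and 11.3 CPM in Xbp1KO, against 9.91 and 6.28 CPM. Neither was called, and Ndufa4, counted under complex I by its symbol, is known as a subunit of complex IV.

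The promoters of 3 members, Cox6a1, Ndufs6 and Atp5b, show sequence elements that some members hold and others do not. Cox6a1 is the common partner of the called isoform Cox6a2, Ndufs6 holds a pair of different elements, and Atp5b had the highest level. The windows run from 250 bases before to 50 bases after the start of the gene, are taken from RefSeq on GRCm38.p6, and are written 5′ to 3′ on the strand of the gene. Capitals mark matches on either strand to the palindromic site of NRF1, an activator of respiratory genes, to ETS factors such as GABP (CCGGAAG, or CTTCCGG on the opposite strand), and to YY1 (AAGATGGCG).
Cox6a1, chr5:115348909-115349208, minus strand: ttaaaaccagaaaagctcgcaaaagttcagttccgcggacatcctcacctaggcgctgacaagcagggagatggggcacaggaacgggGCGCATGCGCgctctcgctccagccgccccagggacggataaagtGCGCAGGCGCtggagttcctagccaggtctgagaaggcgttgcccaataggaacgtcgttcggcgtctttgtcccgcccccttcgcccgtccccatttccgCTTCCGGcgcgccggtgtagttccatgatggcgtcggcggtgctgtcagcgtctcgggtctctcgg
Ndufs6, chr13:73328433-73328732, minus strand: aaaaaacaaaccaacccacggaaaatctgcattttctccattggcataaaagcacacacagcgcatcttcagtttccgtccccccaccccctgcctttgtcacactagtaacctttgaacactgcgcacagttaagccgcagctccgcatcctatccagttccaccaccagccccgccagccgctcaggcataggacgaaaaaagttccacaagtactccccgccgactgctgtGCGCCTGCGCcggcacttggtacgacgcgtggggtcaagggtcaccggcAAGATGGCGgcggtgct
Atp5b, chr10:128083057-128083356, plus strand: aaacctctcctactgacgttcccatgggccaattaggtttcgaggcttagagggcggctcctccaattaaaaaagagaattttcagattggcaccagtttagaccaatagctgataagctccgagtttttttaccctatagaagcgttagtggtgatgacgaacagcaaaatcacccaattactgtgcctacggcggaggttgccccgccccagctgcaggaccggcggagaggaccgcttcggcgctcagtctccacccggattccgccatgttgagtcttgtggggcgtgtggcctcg
The Cox6a1 window holds NRF1 matches that begin 162 and 117 bases before the start and an ETS match 16 bases before it. The Ndufs6 window holds an NRF1 match 16 bases before and a YY1 match 33 bases after the start, and the Atp5b window holds none of these letters. Promoter sequences were matched for 71 of the 89 members, and Cox6a2 and Cox4i1 were not among them. NRF1 letters occurred in 17 of the 71 promoters (23.9%), against 5.19% of the promoters of all 27025 genes. ETS letters also occurred in 17 (23.9%), against 9.93%, YY1 letters in 8 (11.3%), against 1.64%, and the cAMP response element (TGACGTCA) in 4 (5.63%), against 2.03%. The core letters of the unfolded protein response element (TGACGTG), which XBP1 can bind, occurred in 1 (1.41%), against 2.22%. The members' promoters had a median GC content of 57.3% with 19 CpG, against 52.7% with 7 CpG over all genes. The letters of each of these elements contain CpG. A match describes letters in this window and shows no binding.

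Without Blimp1, no OXPHOS member was called changed. Of the 85 members, 48 had an estimate above WT of batch 1 and 37 below, and their median log2 fold change was 0.02, against -0.01 over all 15073 genes. A gene was called at an adjusted p below 0.05 (edgeR's quasi-likelihood test, Benjamini-Hochberg over all genes tested), which 0.862% of all genes reached in this comparison. At an unadjusted p below 0.05 there were 3 of 85 members, against 2093 of 15073 genes. DESeq2's Wald test called 2 members, Cox4i2 and Cox7a2l, and 862 of 15073 genes. Estimates lay within 1.5-fold for 78 of the 85 members, with a median standard error of 0.28 on the log2 scale.

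**Figure D2:**
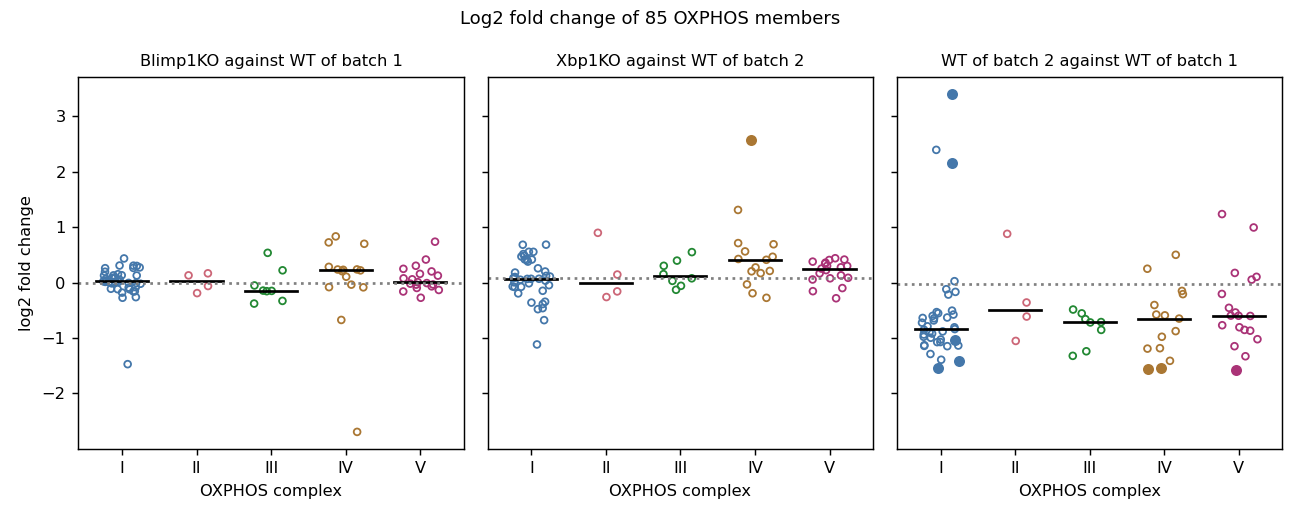
Log2 fold change of the 85 OXPHOS members (vertical axis) by complex (horizontal axis) in Blimp1KO against WT of batch 1, Xbp1KO against WT of batch 2, and WT of batch 2 against WT of batch 1. Points are genes, filled where called, bars are medians by complex and the dotted line is the median of all genes. Medians by complex lie between -0.15 and 0.41 in the knockouts and between -0.84 and -0.49 for the WT batches.

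The Blimp1KO libraries stood on opposite sides of WT. Replicate 2 was higher than replicate 1 for 83 of 85 members, with a median difference of 0.83 on the log2 scale, while the medians between replicates were 0.00 in WT of batch 1, -0.08 in Xbp1KO and -0.06 in WT of batch 2. The members' share of counts outside immunoglobulin genes was 0.832% and 1.32% in Blimp1KO, against 1.07% and 1.11% in WT of batch 1. The shares overlapped and averaged 1.08 ± 0.344% in Blimp1KO and 1.09 ± 0.0315% in WT (SD, n = 2 each; exact 2-sided permutation p = 1, where 2 against 2 libraries cannot go below 0.333). As a share of all counts they stood at 0.371% and 0.549% in Blimp1KO, against 0.259% and 0.271% in WT, and averaged 0.460 ± 0.126% and 0.265 ± 0.00847% in the same groups (exact p = 0.333). Here the groups did not overlap, and immunoglobulin counts took 55.4% and 58.3% of the Blimp1KO libraries, against 75.8% and 75.6% of the WT libraries, so the direction depended on whether these counts were left out. Without Blimp1KO replicate 1, the median log2 fold change was 0.43 and 79 of 85 estimates were above WT. Without replicate 2 it was -0.43 and 80 estimates were below WT. The median near 0 therefore stands between a high and a low library.

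**Figure D3:**
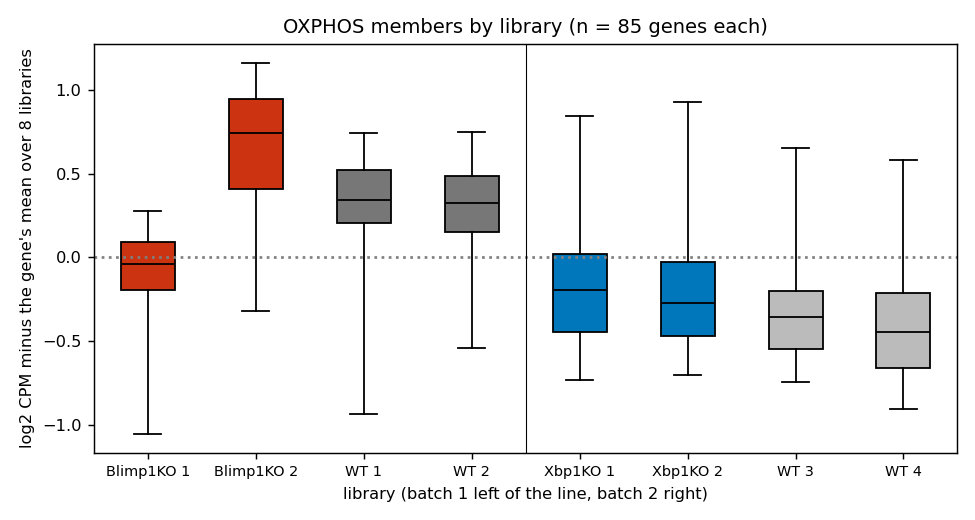
Log2 CPM of each OXPHOS member minus its mean over the 8 libraries (vertical axis), by library (horizontal axis). Boxes span the quartiles of 85 genes around the median and whiskers run from the 5% to the 95% quantile, with the highest median at 0.74 in Blimp1KO replicate 2 and the lowest at -0.45 in WT replicate 4.

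Other short, abundant mRNAs differed between the Blimp1KO libraries in the same way. Cytosolic ribosomal protein genes were higher in replicate 2 for 82 of 82 genes, with a median difference of 0.88. By contrast, the subunits encoded by mitochondrial DNA had a median of -1.10, with 10 of 13 lower. In WT of batch 1 these 13 subunits were also mostly lower in replicate 2, with a median of -0.76 and 10 lower. The ribosomal protein genes had a median of -0.04 there. Across genes, which are not independent replicates and share these libraries, Spearman's rho between gene length and the difference of replicate 2 from replicate 1 was -0.53 over the 85 members and -0.50 over all 15073 genes. The members had a median length of 679 bases, against 2616 bases for all genes tested. Over all genes the same rho was 0.00 in WT of batch 1, -0.02 in Xbp1KO and 0.05 in WT of batch 2. Over the 85 members it was negative in these groups too, at -0.29, -0.13 and -0.26. The part of transcript length in the members' values was not tested.

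**Figure D4:**
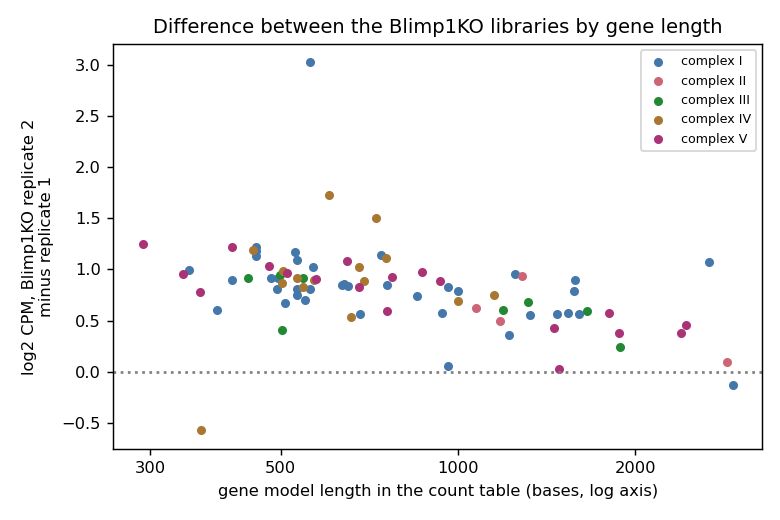
Log2 CPM of Blimp1KO replicate 2 minus replicate 1 (vertical axis) against length of the gene model in bases (horizontal log axis) for the 85 OXPHOS members, coloured by complex. Shorter members lie higher, with 83 of 85 above 0 and a Spearman's rho of -0.53 across genes.

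Only 6 members stood apart from WT of batch 1 in both Blimp1KO libraries. The members above WT were Sdha and Cox7a2l (2.35%, against 20.9% of all genes), and those below were Ndufs1, Ndufa4l2, Cox4i2 and Atp5b (4.71%, against 22.1%). Ndufs1, the large iron-sulfur subunit of complex I, stood at 29.9 and 27.4 CPM in Blimp1KO, against 30.4 and 38.4 CPM in WT of batch 1 (-0.26 ± 0.17, adjusted p = 0.588 by edgeR). Its library values nearly touched. The core subunits Ndufs3, Ndufs7, Ndufs8, Ndufv1 and Ndufv2 of complex I, among which Ndufv1 holds the flavin, overlapped with WT, with estimates from -0.16 to 0.09. In complex II, Sdha, the flavoprotein that oxidises succinate, stood at 172 and 184 CPM, against 161 and 156 CPM (0.17 ± 0.16, adjusted p = 0.754 by edgeR). The iron-sulfur subunit Sdhb and the membrane anchors Sdhc and Sdhd overlapped with WT, with estimates of -0.06, -0.19 and 0.13.

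In complex III every tested member overlapped with WT of batch 1. Cyc1, which hands electrons to cytochrome c, stood at 38.7 and 58.6 CPM in Blimp1KO, against 64.3 and 58.0 CPM (-0.33 ± 0.22). Uqcrh, the hinge protein, stood at 74.95 and 142 CPM, against 82.2 and 67.0 CPM (0.54 ± 0.29, adjusted p = 0.499 by edgeR). Uqcrfs1, the Rieske iron-sulfur protein, and the core proteins Uqcrc1 and Uqcrc2 had estimates from -0.15 to -0.05. In complex V, Atp5b stood at 349.96 and 455 CPM, against 493 and 479.98 CPM, below WT in both libraries (-0.27 ± 0.20, adjusted p = 0.652 by edgeR). The alpha subunit gene Atp5a1, which pairs with beta, overlapped with WT at 326 and 447 CPM, against 409 and 400.1 CPM. The gamma, delta and epsilon subunit genes Atp5c1, Atp5d and Atp5e and the c-ring genes Atp5g1, Atp5g2 and Atp5g3 overlapped as well, with estimates from -0.16 to 0.30.

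The smallest p-values in Blimp1KO belonged to isoforms and accessory proteins. Cox4i2, the oxygen-sensitive isoform of cytochrome oxidase subunit 4, had 2 and 9 raw counts in Blimp1KO, against 24 and 20 in WT of batch 1 (-2.69 ± 0.74, adjusted p = 0.17 by edgeR). It made up 0.0186% and 0.0397% of the summed level per length of both subunit 4 isoforms in Blimp1KO, against 0.274% and 0.232% in WT, so Cox4i1 made up nearly all of the pair in all 4 libraries. Cox4i1 itself overlapped at 137 and 279.8 CPM, against 185 and 169 CPM. Ndufa4l2, a hypoxia-induced paralog of Ndufa4, stood at 0.683 and 0.713 CPM in Blimp1KO, against 2.45 and 1.43 CPM in WT of batch 1 (-1.47 ± 0.43, adjusted p = 0.193 by edgeR). Cox7a2l stood at 96.9 and 163 CPM, against 73.6 and 71.9 CPM, without overlap (0.83 ± 0.25, adjusted p = 0.204 by edgeR). Atp5l (0.74 ± 0.50) and Cox6b2 (0.73 ± 1.03) had the next highest estimates, and Cox6a2 (-0.67 ± 0.48) the next lowest; each overlapped with WT.

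Without Xbp1, 1 member of 85 was called, the muscle-type cytochrome oxidase gene Cox6a2, which was higher in the knockout. It is 1.18% of the members, while 2.63% of all genes were called higher and 7.7% were called in either direction. The members' median log2 fold change was 0.15, against 0.08 over all genes, with 61 estimates above WT of batch 2 and 24 below. At an unadjusted p below 0.05 there were 7 of 85 members, against 3552 of 15073 genes. These members were Cox6a2, Cox6c, Ndufa4l2, Ndufa9, Ndufa10, Ndufb5 and Ndufc2. Against all 4 WT libraries pooled no member was called, while 1304 of 15073 genes were. With 1 library left out the members' median ran from 0.087 to 0.23, and Cox6a2 was not called in every such fit. In the fit of all 8 libraries, medians by complex were 0.07 in complex I, -0.01 in complex II and 0.12 in complex III. They were 0.41 in complex IV and 0.25 in complex V.

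Cox6a2 (Entrez 12862, chr7:128205435-128206366 on GRCm38) encodes the heart and skeletal muscle isoform of cytochrome oxidase subunit 6A and is also known as a gene of plasmacytoid dendritic cells. It stood at 26.5 and 21.7 CPM in Xbp1KO, against 5.40 and 2.71 CPM in WT of batch 2. In batch 1 it stood at 4.73 and 6.87 CPM in Blimp1KO, against 13.1 and 5.38 CPM in WT. The Xbp1KO libraries lay above the 6 others, and Blimp1KO overlapped with its WT. The log2 fold change was 2.57 ± 0.50 in Xbp1KO (95% interval 1.39 to 3.74; adjusted p = 0.0276 by edgeR) and -0.67 ± 0.48 in Blimp1KO (adjusted p = 0.629 by edgeR). The difference of these effects was 3.24 ± 0.68, with an adjusted p of 0.0706 by edgeR, and missed the threshold. The call in Xbp1KO was lost without any 1 of the 4 libraries of batch 2, with adjusted p by edgeR from 0.0772 to 0.146, and against all 4 WT libraries pooled, with 0.0659. The log2 fold change stayed between 1.86 and 3.15 in these fits.

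The common partner Cox6a1 stood at 49.1 and 51.3 CPM in Xbp1KO, against 38.8 and 35.9 CPM in WT of batch 2, without overlap and without a call (0.43 ± 0.28, adjusted p = 0.427 by edgeR). Cox6a2 made up 30.4% and 25.5% of the summed level per length of the pair in Xbp1KO, against 10.1% and 5.75% in WT of batch 2. In Blimp1KO it made up 5.04% and 3.94%, against 8.39% and 4.02% in WT of batch 1. The share was higher in both Xbp1KO libraries than in any of the 6 others.

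**Figure D5:**
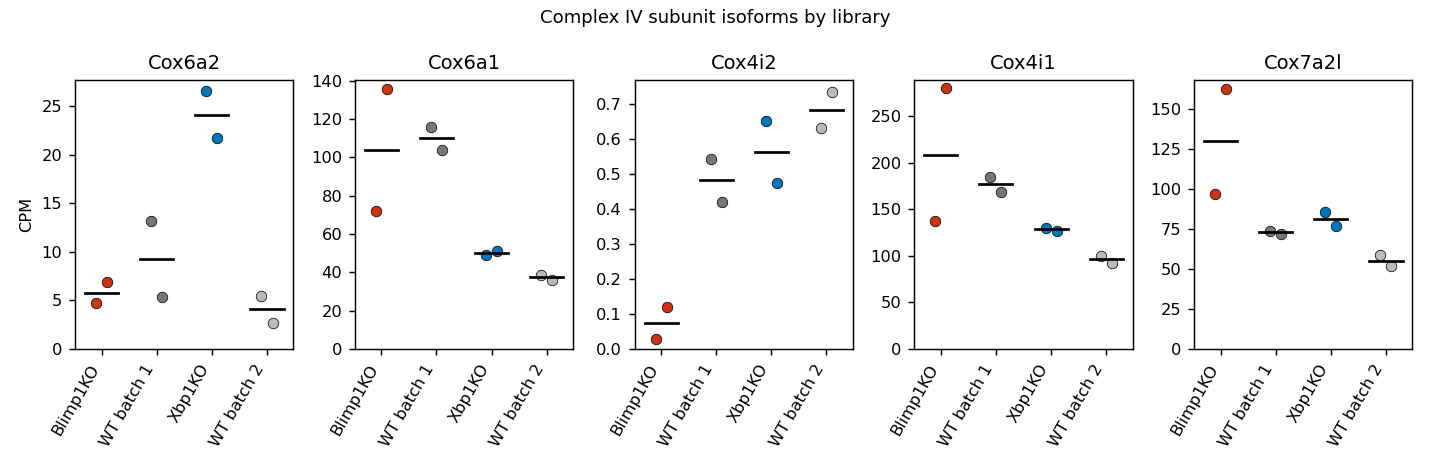
CPM of complex IV isoform genes (vertical axes from 0) in each library of Blimp1KO, WT of batch 1, Xbp1KO and WT of batch 2, where points are libraries and bars are means of 2. Cox6a2 stands at 26.5 and 21.7 CPM in Xbp1KO, above the 6 other libraries, and Cox4i2 stays under 1 CPM in all 8.

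Markers of cells in which Cox6a2 is known were listed after its values had been seen. Of 11 muscle genes 3 passed the filter, their summed level was 2.88 and 2.58 CPM in Xbp1KO, against 2.99 and 1.79 CPM in WT of batch 2, and the myoglobin gene Mb had 0 counts in all 8 libraries. The 9 tested genes of plasmacytoid dendritic cells summed to 360.4 and 324 CPM in Xbp1KO, against 327 and 344 CPM in WT. Gene by gene, 6 of the 9 estimates were above WT and 3 below, with a median log2 fold change of 0.66, and 4 were past 2-fold in either direction. Of the 9 genes, Ccr9 was called higher and Irf8 and Pacsin1 lower in Xbp1KO. Siglech, a defining surface marker of these cells, stood at 0.0481 and 3.06 CPM in Xbp1KO, against 0.256 and 0.360 CPM in WT. Siglech and the summed erythroid and neutrophil markers were lower in replicate 1 of Xbp1KO than in replicate 2. The summed genes of plasmacytoid dendritic cells went the other way, at 360.4 and 324 CPM. The direction for these genes depended on the summary. Their mean log2 CPM was lower in replicate 1, at 2.44 against 3.31, and their median log2 CPM higher, at 4.49 against 4.35. The part of any of these cells in the Cox6a2 values was not tested. The annotated end of the integrin gene Itgad (chr7:128173933-128205504) overlaps Cox6a2, and it stood at 0.417 and 6.01 CPM in Xbp1KO, against 0.213 and 1.25 CPM in WT of batch 2. Itgad lay below Cox6a2 in both Xbp1KO libraries. Whether counting used strand is not stated.

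The remaining members of complex IV were not called in Xbp1KO. Cox4i1 stood at 130.1 and 126.5 CPM, against 100.2 and 92.7 CPM in WT of batch 2 (0.41 ± 0.31, adjusted p = 0.493 by edgeR). Cox7a2l stood at 85.8 and 76.7 CPM, against 58.4 and 51.6 CPM (0.56 ± 0.25, adjusted p = 0.234 by edgeR), so its estimate was positive in both knockouts. Both genes lay above WT without overlap. Cox6c, a small structural subunit, stood at 28.0 and 25.3 CPM, against 17.8 and 14.7 CPM (0.71 ± 0.27), and Cox7b, another, lay below WT at 20.1 and 19.4 CPM, against 22.3 and 22.8 CPM (-0.19 ± 0.22). Cox7c, a small subunit, stood at 4.29 and 3.80 CPM, against 2.89 and 2.97 CPM (0.47 ± 0.40). Cox5a, Cox6b1 and Cox8a lay above WT by 0.20 to 0.27 without overlap. The share of complex IV in counts outside immunoglobulin genes averaged 0.124 ± 0.0033% in Xbp1KO and 0.0921 ± 0.0032% in WT (SD, n = 2 each; exact 2-sided permutation p = 0.333). Cox4i2, Cox5b, Cox6b2, Cox7a1 and Cox7a2 overlapped with WT, and the estimate of 1.31 ± 1.00 for Cox6b2 rests on less than 1 CPM.

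In complex I the members pointed both ways, with 25 estimates above WT of batch 2 and 14 below. Ndufc2, an accessory subunit of the membrane arm, stood at 24.8 and 25.5 CPM in Xbp1KO, against 16.5 and 14.8 CPM in WT of batch 2 (0.68 ± 0.20, adjusted p = 0.0868 by edgeR). Ndufa9, an accessory subunit near the quinone site, stood at 20.9 and 22.7 CPM, against 36.6 and 33.1 CPM (-0.68 ± 0.20, adjusted p = 0.0946 by edgeR). Neither passed the threshold in the fit of all 8 libraries, and both were called in the fit of batch 2 alone and by DESeq2. Ndufa4l2 stood at 0.984 and 0.658 CPM, against 1.98 and 1.59 CPM (-1.12 ± 0.42, adjusted p = 0.168 by edgeR). It lay below WT without overlap in both knockouts. Ndufb2, an accessory subunit of the membrane arm, stood at 9.07 and 11.03 CPM, against 12.5 and 15.6 CPM (-0.48 ± 0.36).

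The core subunits of complexes I and II gave no call in Xbp1KO. Ndufs1 stood at 44.2 and 36.2 CPM, against 34.8 and 35.2 CPM in WT of batch 2 (0.20 ± 0.17, adjusted p = 0.542 by edgeR). Ndufv2, an iron-sulfur subunit of the electron input module, stood at 37.8 and 34.8 CPM, against 28.8 and 23.1 CPM (0.48 ± 0.22). Both lay above WT, as did Ndufs7 and Ndufs8, while Ndufv1 lay below and Ndufs3 overlapped; Ndufs3, Ndufs7, Ndufs8 and Ndufv1 had estimates from -0.15 to 0.42. Sdha stood at 117 and 104 CPM, against 122 and 125 CPM (-0.16 ± 0.16), and Sdhc at 28.8 and 27.3 CPM, against 37.7 and 29.5 CPM (-0.26 ± 0.21). Sdhb stood at 51.2 and 49.9 CPM, against 47.5 and 43.9 CPM, and Sdhd at 2.23 and 2.34 CPM, against 1.66 and 0.778 CPM (0.90 ± 0.50). Sdha and Sdhc thus lay below WT and Sdhb and Sdhd above it.

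In complex III, the core protein Uqcrc2 stood at 93.0 and 85.8 CPM in Xbp1KO, against 71.3 and 73.6 CPM in WT of batch 2, above WT without overlap (0.30 ± 0.16, adjusted p = 0.312 by edgeR). Uqcrc1, Uqcrfs1 and Cyc1 overlapped with WT, with estimates from -0.13 to 0.08. In complex V, 14 of 19 members lay above WT and 1 below (31.8% and 25.8% of all genes), the one below being Atp5o, a stalk subunit, with every estimate of the complex within 1.5-fold. Atp5a1 stood at 297 and 286 CPM, against 269 and 265 CPM, and Atp5b at 299 and 289 CPM, against 273 and 284 CPM. Atp5e stood at 59.9 and 55.6 CPM, against 47.3 and 43.6 CPM (0.34 ± 0.35). Among the other core subunits of complex V, Atp5c1, Atp5g2 and Atp5g3 lay above WT, and Atp5d and Atp5g1 overlapped.

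Over all complexes, 46 of the 85 members lay above WT in both Xbp1KO libraries (54.1%, against 31.8% of all genes) and 12 lay below (14.1%, against 25.8%). The members' share of counts outside immunoglobulin genes was 0.780% and 0.812% in Xbp1KO, against 0.717% and 0.696% in WT of batch 2. The shares did not overlap and averaged 0.796 ± 0.0223% in Xbp1KO and 0.707 ± 0.0147% in WT (SD, n = 2 each; exact 2-sided permutation p = 0.333, the smallest possible here). As a share of all counts they averaged 0.577 ± 0.0430% and 0.231 ± 0.0196% in the same groups, where immunoglobulin counts took 30.0% and 25.2% of the Xbp1KO libraries, against 69.7% and 64.8% of the WT libraries. Against all 4 WT libraries pooled, the members' median was -0.25 with 60 of 85 estimates below WT, so its sign depended on the WT libraries used.

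The knockout effects were also compared with each other. No member was called in the difference of the Xbp1KO effect and the Blimp1KO effect, against 1.68% of all genes, and the members' median difference was 0.13, against 0.04 over all genes. At an unadjusted p below 0.05 there were 2 of 85 members, Cox6a2 and Cox4i2, against 2399 of 15073 genes. DESeq2's Wald test called 1 member, Cox6a2, and 1180 of 15073 genes. Cox4i2 had a difference of 2.42 ± 0.98 (adjusted p = 0.29 by edgeR). Without Blimp1KO replicate 2 the members' median difference was 0.51, and without replicate 1 it was -0.32. The sign of the median therefore followed the Blimp1KO library that was kept.

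Among WT libraries alone, most members were lower in batch 2, by more than the median in either knockout. The median log2 fold change of WT of batch 2 against WT of batch 1 was -0.72, against -0.02 over all genes, with 73 of 85 estimates below 0. Medians by complex were -0.84 in complex I, -0.49 in complex II, -0.72 in complex III, -0.65 in complex IV and -0.60 in complex V. The test called 8 members (9.41%), 2 higher and 6 lower, against 2.81% of all genes, 1.96% higher and 0.843% lower. In both libraries and without overlap, 66 members lay below WT of batch 1 (77.6%, against 35.3% of all genes) and 8 above it (9.41%, against 32.3%). Batch and any other difference between these mice cannot be told apart.

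The 6 members called lower in WT of batch 2, named here after their values had been seen, belong to complexes I, IV and V. Cox6a1 stood at 38.8 and 35.9 CPM in WT of batch 2, against 116 and 104 CPM in WT of batch 1 (-1.56, adjusted p = 0.0452 by edgeR). Cox6b1, the subunit that faces cytochrome c, stood at 22.6 and 25.2 CPM, against 67.0 and 71.2 CPM (-1.53). Ndufs6, a zinc-binding subunit of complex I, stood at 6.81 and 6.60 CPM, against 20.05 and 19.1 CPM (-1.55). The groups did not overlap for these genes, nor for Ndufa4 (-1.42), Ndufc2 (-1.03) and Atp5j2, the f subunit of ATP synthase (-1.57). The members called higher were the Ndufb4 copies, with Gm3244 at 3.54 and 5.17 CPM in WT of batch 2, against 0.295 and 0.525 CPM in WT of batch 1, and Gm3873 at 4.80 and 5.52 CPM, against 1.22 and 1.09 CPM. With 1 library left out, the median of the 85 members stayed between -0.78 and -0.66, while no call held in every such fit.

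The subunits encoded by mitochondrial DNA differed between the WT batches in the opposite direction. All 13 had estimates above 0 for WT of batch 2 against WT of batch 1, with a median of 1.06. Of these, 5 were called higher, against 1.96% of all genes. COX2, a catalytic subunit of cytochrome oxidase, stood at 553 and 491 CPM in WT of batch 2, against 42.3 and 33.5 CPM in WT of batch 1. ATP8, a subunit of ATP synthase, stood at 129 and 118 CPM, against 3.29 and 3.67 CPM. ND1 of complex I overlapped at 1049.9 and 943 CPM, against 1254 and 707 CPM, as did CYTB of complex III at 2000.3 and 1810.0 CPM, against 2085 and 1169 CPM. All transcript windows of COX2 also occur in another gene, the pseudogene Gm28661 among them. The shared part was 99.9% for COX3, 99.5% for ATP6, 98.8% for ND4L, 98.0% for ND3, 62.2% for ND4 and 51.1% for COX1. It was 8.19% for ND2 and 7.61% for ND5, and none of the windows of ATP8, ND1, ND6 or CYTB occur in another gene. Medians and summed shares of the 13 subunits include the genes with shared windows.

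Against WT of their own batch, none of the 13 was called in either knockout. In Xbp1KO all 13 estimates were below 0, with a median of -0.44, and 11 lay below WT without overlap, as did 25.8% of all genes, while the nuclear members had a median of 0.15. COX1, the catalytic subunit that reduces oxygen, stood at 3946 and 3342 CPM in Xbp1KO, against 4443 and 4090 CPM in WT of batch 2 (-0.23 ± 0.47, adjusted p = 0.819 by edgeR). Of the COX1 transcript windows, 51.1% also occur in another gene. The 13 subunits' summed share of counts outside immunoglobulin genes was 2.68% and 2.46% in Xbp1KO, against 3.43% and 3.13% in WT of batch 2, without overlap. As a share of all counts they averaged 1.86% in Xbp1KO and 1.07% in WT, so the direction depended on whether immunoglobulin counts were left out. In Blimp1KO the median was 0.13 with 9 estimates above 0, and the share was 2.70% and 1.14%, against 2.41% and 1.45% in WT of batch 1, with overlap.

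In genes that build and feed the complexes, calls in Xbp1KO are read beside the 2.63% of all genes called higher and 7.7% called in either direction. Of 43 assembly factors tested, Cox20, which helps to mature the COX2 protein, was called higher in Xbp1KO at 10.7 and 13.1 CPM, against 5.78 and 6.72 CPM in WT of batch 2 (0.93 ± 0.21, adjusted p = 0.0422 by edgeR). Of 76 mitochondrial ribosomal protein genes, 3 were called higher in Xbp1KO, among them Mrpl19 (0.90 ± 0.18) and Mrpl37 (0.80 ± 0.17), and the median was 0.19. Of 23 genes of the citric acid cycle and pyruvate entry, Pdk2, a kinase that restrains pyruvate dehydrogenase, was called lower in Xbp1KO. Pdk2 stood at 3.76 and 2.60 CPM, against 15.01 and 11.1 CPM in WT of batch 2 (-2.03 ± 0.28, adjusted p = 0.00886 by edgeR). In Blimp1KO none of the genes in these 3 groups was called, and their medians lay between -0.10 and 0.08. Among them 12 were at an unadjusted p below 0.05, against 2093 of all 15073 genes. Atpif1, Cycs and Ndufab1, OXPHOS genes outside the symbol rule, were not called in either knockout. Their estimates in this order were 0.28, 0.32 and -0.06 in Blimp1KO and 0.79, -0.49 and 0.47 in Xbp1KO.

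Protein import and known regulators of mitochondrial biogenesis held the remaining calls. Over all genes, 0.862% were called in Blimp1KO and 2.63% were called higher in Xbp1KO. Of 23 import genes tested, Tomm34, a chaperone-linked import protein, was called higher in Blimp1KO at 27.5 and 32.6 CPM, against 14.24 and 13.97 CPM in WT of batch 1 (1.09 ± 0.17, adjusted p = 0.0447 by edgeR). Timm44, part of the import motor, was called higher in Xbp1KO at 17.8 and 17.0 CPM, against 12.1 and 10.7 CPM in WT of batch 2 (0.61 ± 0.14, adjusted p = 0.0468 by edgeR). Of 15 regulators tested, 2 were called higher in Xbp1KO and none in Blimp1KO. Myc, a growth regulator that acts on many mitochondrial genes, stood at 15.95 and 15.91 CPM in Xbp1KO, against 9.09 and 8.20 CPM in WT of batch 2 (0.88 ± 0.13, adjusted p = 0.0116 by edgeR). Gabpb1, the partner of the ETS factor GABPA, stood at 35.6 and 32.1 CPM, against 20.3 and 19.0 CPM (0.78 ± 0.16, adjusted p = 0.0299 by edgeR). Nrf1 and Gabpa themselves were not called, with estimates of 0.39 ± 0.15 and -0.30 ± 0.20.

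Cytosolic ribosomal protein genes, set beside the members because their mRNAs are also short and abundant, had higher medians than the OXPHOS members in both knockouts. In Blimp1KO the median of 82 tested genes was 0.67, with 80 estimates above WT of batch 1. None was called and 31 were at an unadjusted p below 0.05, against 2093 of all 15073 genes. Summed, these genes stood at 9170 and 16700 CPM in Blimp1KO, against 9031 and 8194 CPM in WT of batch 1. Replicate 1 of Blimp1KO thus lay much nearer WT than replicate 2. Without overlap, 44 of the 82 genes lay above WT, against 20.9% of all genes, and 0 below. In Xbp1KO the median was 0.64, with 75 estimates above WT of batch 2. There 2 were called higher, Rpl27a and Rpl4, while 2.63% of all genes were called higher. The OXPHOS members' medians were 0.02 and 0.15 in the same comparisons, and this contrast between gene groups was not tested.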

How the data were processed

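Raw counts per Entrez gene in 8 libraries and per-sample log2 FPKM values were deposited by the authors. Subread, featureCounts and limma, and the builds GRCm38 and mm10, are named in the submitters' processing notes without versions or roles, and the strand setting is not given in the sources used here. Per the labels' protocols, extraction used RNeasy Micro columns and library preparation the TruSeq RNA kit. Gene symbols were taken from the deposited files for 13860 genes and from RefSeq for 11720 more; 1599 had none.

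Counts were tested with edgeR 4.0.16 (R 4.3.3), after a filter at a minimum count of 10 (filterByExpr), with TMM factors of 0.564 to 2.11. The quasi-likelihood fit used 4 group means over 8 libraries (4 residual degrees of freedom), and p-values were adjusted by Benjamini-Hochberg over all 15073 genes. Standard errors are the absolute log2 fold change over the square root of the F statistic. The shares left out 261 immunoglobulin genes. Alternatives used DESeq2 1.42.0, limma 3.58.1 (voom, and the deposited log2 FPKM), other scalings, no filter, other WT libraries and each library left out. The fit was tested on simulated data. Members were named by role, isoform, calls and extreme estimates or levels, and a few genes of smallest p from each other list. Atp5j2, Atp5o, Cox6c, Cox7c, Gm3244, Gm3873, Ndufa4, Ndufa10, Ndufb4, Ndufb5, Ndufc2 and Ndufs6 were named outside this rule, after their values were seen. The members and lists were chosen with earlier results of these data known, and the lists for muscle, plasmacytoid dendritic cells and Itgad after the Cox6a2 values were seen. Replicate numbers 1 and 2 of batch 1 are crossed between the count table and the log2 FPKM files, so that each count column matched the file of the other number best; groups are unaffected. Replicate numbers here are those of the count table.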

Additional observations from a re-analysis of the deposited data

Results flagged for a closer look

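For 3 core subunits both knockouts stood apart from WT of their own batch, in opposite directions, and none of the differences was called. In Blimp1KO alone 20.9% of all genes lay above WT without overlap and 22.1% below. In Xbp1KO alone these shares were 31.8% and 25.8%. The share of all genes apart in both knockouts in opposite directions was not computed. For Ndufs1 the log2 fold change in Xbp1KO minus that in Blimp1KO was 0.46 (adjusted p = 0.421 by edgeR, over all genes tested). For Sdha it was -0.33 (adjusted p = 0.569 by edgeR), since both Xbp1KO libraries lay below WT of batch 2 and both Blimp1KO libraries above WT of batch 1. For Atp5b it was 0.35 (adjusted p = 0.643 by edgeR), with an estimate of only 0.08 in Xbp1KO. The Ndufs1 values nearly touched in batch 1, at 29.9 CPM in Blimp1KO against 30.4 CPM in WT for the closest libraries.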

How the results depend on the processing

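With 2 libraries a group, 1 library decides many calls. The Xbp1KO median of 0.15 was 0.093 with TMM factors computed without immunoglobulin genes and -0.25 against all 4 WT libraries, and ran from 0.087 to 0.23 with 1 library left out. The Blimp1KO median of 0.02 ran from -0.43 to 0.43 with 1 library left out. Members called numbered 0 in Blimp1KO (2 by DESeq2, 0 to 7 with 1 library left out), 1 in Xbp1KO (3 by DESeq2, 5 in batch 2 alone, 0 against all WT, 0 to 9 with 1 left out) and 0 in the difference (1 without the count filter, 1 by DESeq2, 0 to 8 with 1 left out). The WT batches gave 8 (3 with DESeq2 size factors, 3 with TMM without immunoglobulin genes, 40 without the filter, 38 by DESeq2, 2 by limma-voom, 0 to 63 with 1 left out). The Xbp1KO share differed by 0.0891 percentage points outside immunoglobulin genes and 0.345 of all counts, and by 0.0734 to 0.105 with 1 left out; in Blimp1KO it was -0.0157, 0.195 of all counts, and -0.259 to 0.228 with 1 left out. Over all genes, calls in Blimp1KO were 130 (517 without the filter, 862 by DESeq2, 83 by limma-voom, 20 in batch 1 alone, 269 against all WT, 0 to 833 with 1 left out), in Xbp1KO 1160 (2220 by DESeq2, 240 to 2252 with 1 left out) and in the difference 253 (763 without the filter, 1180 by DESeq2, 1552 against all WT, 0 to 686 with 1 left out). The cause of these changes was not tested. Of the single members' values under alternatives, 1400 kept their side of the threshold, of which 1287 kept their sign and 113, called in neither fit, had the other sign; 5 (all Cox6a2) lost the call, 12 gained one and no called value changed sign. Numbers shared by Blimp1KO and WT of batch 1 are not shown to pair libraries (correlation of replicate differences 0.218, 2 pairs); with a replicate block within batch 1, the Blimp1KO median was -0.04, Blimp1KO and the difference had 0 calls, and the WT batches had 2. The difference was not fitted within a single batch.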
